A study of Mus musculus with 9 samples.

Results

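The genes described here encode lysosomal hydrolases, membrane proteins of the lysosome and factors that control lysosome formation. There were 38 of them, taken by symbol from a list that leaves out the cathepsins, and each matched 1 Ensembl gene ID among the 46517 in the table of estimated counts. All 38 had enough counts to be tested. The libraries were made from primary wild-type C57BL/6 mouse cells grown in vitro, 3 each from conventional monocytes (cMos), intermediate monocytes (intMos) and patrolling monocytes (pMos), numbered 0, 1 and 2 within each subset. No treatment or added allele is named for any subset. OP9-DLL1, a stromal feeder line that displays the Notch ligand Delta-like 1, is named in the title of the series. The labels do not say whether libraries of 1 subset came from separate cultures or animals, and the p-values therefore measure the spread between these libraries, which may be technical.

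Lysosomes are acidic organelles in which enzymes take apart lipids, sugars, proteins and nucleic acids that arrive by endocytosis, phagocytosis or autophagy. Most soluble hydrolases reach them with a mannose 6-phosphate tag, small activator proteins lift lipids towards some of the enzymes, and heavily glycosylated membrane proteins line the inner face. The MiT family of transcription factors, which includes TFEB, TFE3 and MITF, binds E-box sites of the CLEAR type near lysosomal genes and is held in the cytosol by nutrient signalling at the lysosome surface. In monocytes and the cells they give rise to, lysosomes digest engulfed material, and inherited loss of many of these enzymes causes a storage disease.

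The subset labels were set against markers first, with levels in CPM, which are counts scaled to a common library total and by TMM, a factor that aligns the libraries over most genes. The summed level of 6 conventional monocyte markers lay at 4643 to 8659.7 CPM in cMos, 1076 to 2061 CPM in intMos and 566 to 849 CPM in pMos, and that of 8 patrolling markers lay at 1149 to 1437, 3680.0 to 4529 and 9656 to 12257 CPM. All 6 conventional markers were lower in both subsets than in cMos (edgeR adjusted p under 0.05), and were not called between pMos and intMos. Of the 8 patrolling markers, 4 were called higher and 1 lower in intMos, and 8 higher in pMos, against cMos. Spn, a patrolling marker, had 227 to 332 CPM in cMos, 57.2 to 129 CPM in intMos and 504 to 619 CPM in pMos. The 3 libraries numbered 0 stood apart within their subsets: across genes, the correlation of log2 CPM between libraries 1 and 2 was 0.987 for cMos, 0.986 for intMos and 0.99 for pMos, and that of library 0 with either was 0.951 to 0.975. Among the 38 genes the median log2 difference of library 0 from the mean of the other two was -0.27 in cMos, 0.31 in intMos and -0.01 in pMos, so that comparisons between intMos and cMos are given below with and without these libraries. The shallowest library (intMos 0) held 18455008 estimated counts and the deepest (pMos 1) 29985563.

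RefSeq promoter windows of 300 bases (250 before and 50 after a start site, GRCm38.p6) were found for 36 of the 38 genes, all but Asah1 and Npc1. They were searched on both strands for the E-box core CACGTG, which reads the same on both strands, and for the longer TCACGTG of the CLEAR element, whose reverse complement is CACGTGA and which contains the core. The core was present in 9 of 36 members and in 2187 (8.09%) of the 27025 genes with such a window. TCACGTG was present in the same 9 members and in 1160 (4.29%) of these genes. All 15 matched cores in members were part of the longer motif, and they began between 15 and 227 bases upstream of the start. A match is a run of letters, not a shown binding site. The match nearest the start is printed for each of the 9 genes because the results below are set against it, with the motif in capitals and the strand of the gene:
Lamp1, chr8:13159134-13159163, + strand: acgtgaccacaTCACGTGcggaacggagcc
Arsa, chr15:89477423-89477452, - strand: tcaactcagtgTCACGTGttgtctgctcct
Sgsh, chr11:119355522-119355551, - strand: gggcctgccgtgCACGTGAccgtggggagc
Mcoln1, chr8:3500462-3500491, + strand: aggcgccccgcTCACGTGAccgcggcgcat
Glb1, chr9:114401018-114401047, + strand: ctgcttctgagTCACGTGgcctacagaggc
Naglu, chr11:101070009-101070038, + strand: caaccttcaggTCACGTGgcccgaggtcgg
Cln3, chr7:126583340-126583369, - strand: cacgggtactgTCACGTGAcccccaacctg
Gaa, chr11:119267811-119267840, + strand: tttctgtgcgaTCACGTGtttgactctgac
Gla, chrX:134601182-134601211, - strand: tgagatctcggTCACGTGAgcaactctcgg

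The match of Cln3 lay in the more downstream of its 2 windows. The genes with the largest changes, Acp5 and Acp2, had neither motif in any window. The 250 bases upstream of the most upstream of 3 Acp5 starts are given for comparison, in lower case throughout because nothing matched:
Acp5, chr9:22135747-22135996, - strand: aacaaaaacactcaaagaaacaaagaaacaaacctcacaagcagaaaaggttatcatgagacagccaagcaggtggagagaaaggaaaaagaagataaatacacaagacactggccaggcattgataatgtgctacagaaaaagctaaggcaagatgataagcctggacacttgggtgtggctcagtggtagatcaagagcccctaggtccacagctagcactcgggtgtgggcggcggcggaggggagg

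More lysosomal genes were higher than lower in intMos and pMos against cMos, and the acid phosphatase genes Acp5 and Acp2 changed by far more than the others. Of the 38 members, 12 rose and 2 fell in intMos against cMos, and 11 rose and 3 fell in pMos against cMos (edgeR, Benjamini-Hochberg adjusted p under 0.05 over 14059 genes). The background is high: among all genes tested, 14.0% were called higher and 10.4% lower in the first comparison, and 17.2% and 15.9% in the second. Members called higher made up 31.6% and 28.9% of the 38. In either direction 36.8% were called in both comparisons, beside 24.4% and 33.1% of all genes, so the total in pMos was near the background. The median log2 change of the members was 0.35 and 0.23, beside -0.01 and 0.03 over all genes tested, and 30 and 27 of the 38 values were positive. Both comparisons use the same cMos libraries. All intMos libraries lay above all cMos libraries in 16 members and below them in 2, beside 21.2% and 20.1% of all genes, and all pMos libraries lay above in 17 and below in 5, beside 26.0% and 23.5%. At an unadjusted p under 0.05 there were 19 and 20 members, beside 37.6% and 43.4% of all genes. In pMos against intMos 3 members were called (7.89%, beside 4.99% of all genes). The test over the 3 subsets called 16 members (42.1%, beside 33.0%). Across the 3 comparisons 20 members were not called in any. The share of all genes called in none was not counted.

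Without the libraries 0, 10 members rose and 3 fell in intMos against cMos (13 called, beside 27.8% of all genes, 15.8% higher and 11.9% lower), with a median log2 change of 0.19, and 13 rose and 6 fell in pMos against cMos (19 called, beside 37.7% of all genes, 19.7% higher and 18.0% lower), with a median of 0.13. Of the 14 members called with all 9 libraries, 12 were still called in intMos and 14 in pMos, and all kept their direction. The members were picked on data that include these same libraries, so this is not an independent check. On leaving out each of the 9 libraries in turn, 8 members stayed called every time in intMos against cMos (Galc, Neu1, Smpd1, Gm2a, Man2b1, Acp2, Acp5 and Pla2g15), and 8 in pMos against cMos (Arsb, Smpd1, Lipa, Gm2a, Man2b1, Tfeb, Acp2 and Acp5). The shares of all genes that stayed called in these ways were not counted, so nothing particular to the members is read from these numbers. Without intMos 0 the count in intMos against cMos was 9, while calls over all genes went from 3433 to 2337. Without pMos 1 the count in pMos against cMos was 8, while calls over all genes went from 4650 to 3138.

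**Figure D1:**
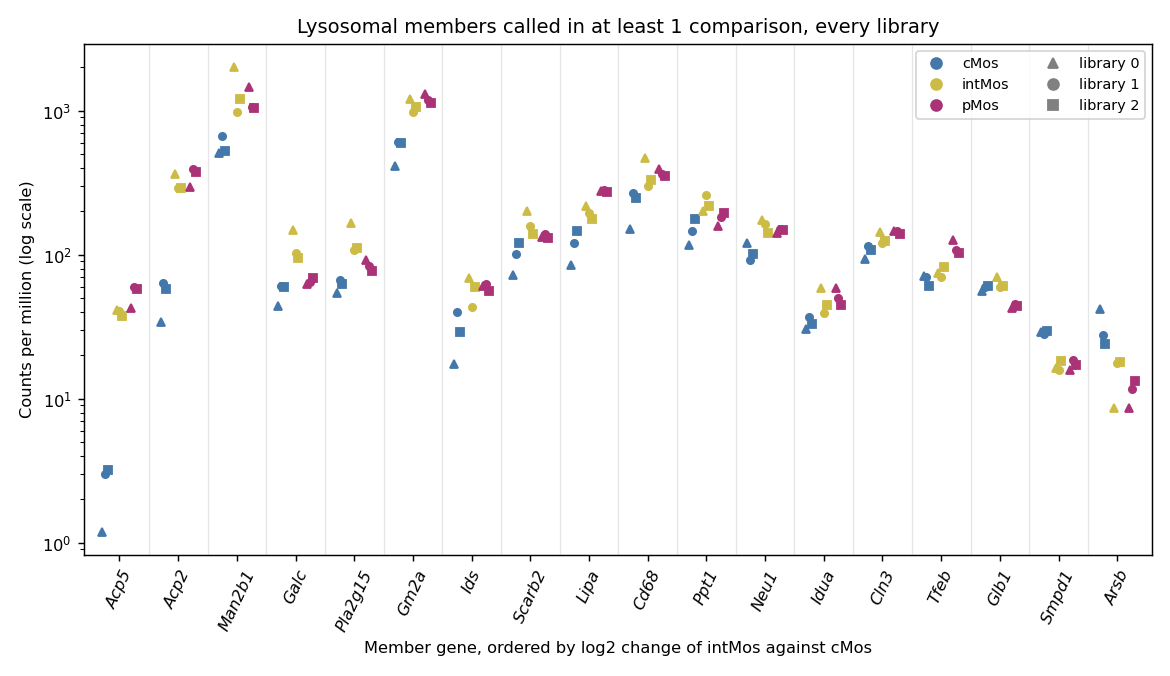
CPM of the 18 members called in at least 1 comparison (vertical axis, log scale), 1 point per library, coloured by subset and shaped by library number. Acp5 and Acp2 show the widest gaps, with every cMos library below every intMos and pMos library, and Smpd1 and Arsb lie highest in cMos.

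**Figure D2:**
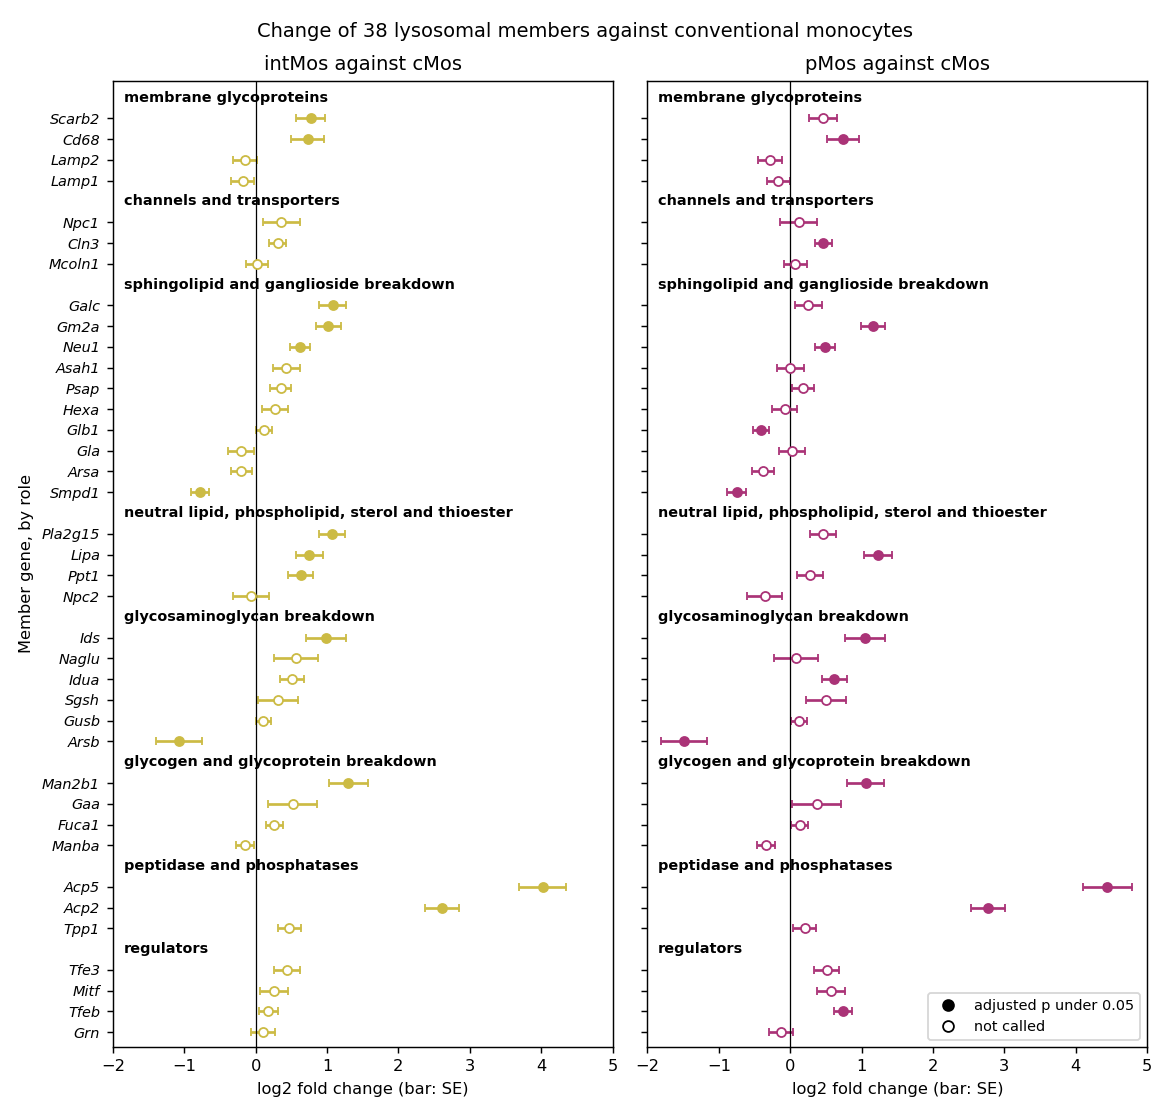
Log2 fold change against cMos of all 38 members (horizontal axis, bars are SE), ordered by role, for intMos on the left and pMos on the right, with filled points for genes called at an adjusted p under 0.05. The phosphatases Acp5 and Acp2 lie at 2.61 to 4.44, and all other members between -1.49 and 1.30.

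Markers of other cells moved between the same subsets. Of 12 stromal markers that could come from feeder cells, 9 were called higher in intMos and 9 in pMos than in cMos. Their summed level was 8.53 to 16.3 CPM in cMos, 171 to 560.3 CPM in intMos (highest in library 0) and 191 to 383 CPM in pMos, with Lum and Dcn under 1 CPM in all libraries. The 11 macrophage markers summed to 336 to 969 CPM in cMos, 3373 to 6383 CPM in intMos and 1412 to 2156 CPM in pMos, while Vsig4 and Timd4 stayed under 1 CPM. Of the 9 macrophage markers tested, 6 were called higher and 2 lower in each comparison against cMos. Trem2 had 65.1 to 95.8 CPM in cMos and 22.7 to 30.9 CPM in intMos, Gpnmb was also lower in every intMos library than in every cMos library, and C1qb alone had 1067 to 2135 CPM in intMos. Granulocyte and progenitor markers summed to 10507 CPM in cMos 0 beside 2089.8 and 2340.3 CPM in cMos 1 and 2, to 359.6, 3421 and 3133 CPM in intMos and to 421, 1926 and 1967 CPM in pMos, and 5 of 11 were called lower in each comparison against cMos. Library 0 was thus the highest in cMos and the lowest in the other subsets. Of 7 dendritic cell markers, 6 were called higher in intMos, and 3 higher and 2 lower in pMos. The part of these markers in the changes of lysosomal genes was not tested. In bulk RNA, more cells of a type and more RNA per cell cannot be told apart.

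Acp5 (ENSMUSG00000001348.13, mm10 chromosome 9, 22126727 to 22135711, minus strand) encodes tartrate-resistant acid phosphatase, an enzyme best known from osteoclasts and also made by macrophages. Its level was 1.19, 2.99 and 3.2 CPM in cMos libraries 0, 1 and 2, 41.5, 40.9 and 37.6 CPM in intMos, and 42.7, 60.0 and 57.3 CPM in pMos. The cMos libraries lay far below all others, and intMos and pMos did not overlap either. Acp5 rose 16.2-fold in intMos (log2 4.02 ± 0.33 SE, edgeR adjusted p = 0.000115) and 21.6-fold in pMos (log2 4.44 ± 0.34, adjusted p = 4.52e-05), and the difference between intMos and pMos was not called (log2 0.42 ± 0.29, adjusted p = 0.513), though it was without the libraries 0 (log2 0.58, adjusted p = 0.0101). Of 9 other osteoclast markers 7 could be tested, and 4 were called higher and 1 lower in intMos, and 6 higher and 0 lower in pMos, against cMos. They summed to 103 to 288 CPM in cMos, 318 to 504 CPM in intMos and 353 to 489 CPM in pMos, and Mmp9, which granulocytes also make, gave 183 CPM of the sum in cMos 0. Calcr, the calcitonin receptor, was at 0 CPM in all libraries, Oscar, a receptor of osteoclasts, stayed under 1 CPM, and Ctsk, the collagen-cutting cathepsin of osteoclasts, did not exceed 1.6 CPM. Ocstamp, a membrane protein of cell fusion, went from 3.74 to 5.94 CPM in cMos to 127 to 298 CPM in intMos and 97.0 to 176 CPM in pMos. Dcstamp, its partner in fusion, had 4.85 to 16.9 CPM in pMos and at most 1.39 CPM elsewhere. Itgb3, an integrin subunit, had 9.25 to 14.4 CPM in cMos, 4.8 to 8.32 CPM in intMos and 53.8 to 79.5 CPM in pMos, and Nfatc1, a transcription factor of osteoclasts, 64.9 to 92.9, 113 to 171 and 167 to 204 CPM. Car2, a carbonic anhydrase, did not exceed 3.33 CPM. The part of such cells in the rise of Acp5 was not tested.

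Acp2 (ENSMUSG00000002103.14, chromosome 2, 91202885 to 91214098, plus strand) encodes the housekeeping lysosomal acid phosphatase, which starts as a membrane protein. It measured 34.2, 63.3 and 57.5 CPM in cMos, 362, 292 and 292 CPM in intMos and 297, 391 and 372 CPM in pMos. All cMos libraries were below all others, while intMos and pMos overlapped. Acp2 rose 6.11-fold in intMos (log2 2.61 ± 0.24, edgeR adjusted p = 0.000187) and 6.84-fold in pMos (log2 2.77 ± 0.24, adjusted p = 8.31e-05). Ddb2, a DNA repair gene on the other strand, shares 652 exonic bases with Acp2 and had a mean of 12.4, 14.3 and 15.5 CPM in cMos, intMos and pMos, with no call against cMos. Tpp1, a tripeptidyl peptidase, had 123 to 151 CPM in cMos, 167 to 244 CPM in intMos and 157 to 165 CPM in pMos. The groups did not overlap, but Tpp1 was not called by edgeR (adjusted p = 0.0623, and 0.0451 by DESeq2, in intMos against cMos).

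Of 10 genes for the breakdown of sphingolipids and gangliosides, 3 rose and 1 fell in intMos, and 2 rose and 2 fell in pMos against cMos. Of all genes 14.0% rose and 10.4% fell in intMos, and 17.2% and 15.9% in pMos, and with 10 or fewer genes in each role nothing is read from the shares. Gm2a, the activator that presents ganglioside GM2 for breakdown, measured 414, 601 and 593 CPM in cMos, 1209, 979 and 1067 CPM in intMos and 1293, 1179.5 and 1132 CPM in pMos. Every library of the latter subsets was above every cMos library. It rose 2.02-fold in intMos (log2 1.02 ± 0.17, edgeR adjusted p = 0.00283) and 2.24-fold in pMos (log2 1.16 ± 0.17, adjusted p = 0.00104). Hexa, a hydrolase of ganglioside breakdown, had means of 425 ± 95.2, 512 ± 70.0 and 403 ± 12.1 CPM (SD, n = 3 libraries) in cMos, intMos and pMos and was not called.

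Galc removes galactose from galactosylceramide. Its values were 44.0, 60.5 and 59.6 CPM in cMos, 149, 103 and 95.0 CPM in intMos and 62.6, 64.5 and 68.7 CPM in pMos. The intMos libraries were the highest, with no overlap, and library 0 was the highest of them. Galc rose in intMos against cMos (log2 1.08 ± 0.19, edgeR adjusted p = 0.00451, and 0.73 without the libraries 0). Neu1, the sialidase of the lysosome, measured 121, 92.0 and 100.4 CPM in cMos, 175, 163 and 142 CPM in intMos and 142, 150.3 and 148 CPM in pMos. No cMos library reached the others. Neu1 rose in intMos (log2 0.62 ± 0.14, adjusted p = 0.0118) and in pMos (log2 0.49 ± 0.14, adjusted p = 0.022). The pMos call of Neu1 was lost on leaving out cMos 1, cMos 2, pMos 1 or pMos 2 (adjusted p up to 0.0685).

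Smpd1 encodes acid sphingomyelinase, which releases ceramide from sphingomyelin. It went against most of the group, at 28.9, 28.0 and 29.5 CPM in cMos, 16.2, 15.8 and 18.3 CPM in intMos and 15.8, 18.6 and 17.0 CPM in pMos. The cMos libraries were all higher, and intMos and pMos overlapped. Smpd1 fell by 0.78 ± 0.13 on the log2 scale in intMos (edgeR adjusted p = 0.00305) and by 0.75 ± 0.13 in pMos (adjusted p = 0.00247). Glb1, the beta-galactosidase of the lysosome, had 55.6, 59.7 and 60.2 CPM in cMos, 70.4, 60.0 and 60.3 CPM in intMos and 42.4, 45.1 and 44.3 CPM in pMos. All pMos libraries were below all others, and cMos and intMos overlapped. It fell in pMos against cMos (log2 -0.41 ± 0.11, adjusted p = 0.0205), a call lost without cMos 2 or any pMos library (adjusted p up to 0.0701). Tmppe, a gene on the same strand, shares 165 exonic bases with Glb1, where strand cannot separate their reads. Its means were 27.5, 28.9 and 32.5 CPM in cMos, intMos and pMos, with no call.

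The remaining sphingolipid genes were not called by edgeR in any comparison with all 9 libraries. Psap, the precursor of the saposin activators, was the most abundant member on the scale of CPM per kb of its principal transcript, at a mean of 3695 over the 9 libraries, ahead of Lamp1 at 448 and Grn, the progranulin gene, at 391. Mitf was the lowest at 4.25 CPM per kb. Psap ran from 7376 to 10291 CPM in cMos, 9639 to 12078 CPM in intMos and 9538 to 10033 CPM in pMos, and cMos overlapped with both other subsets. The other 37 genes together summed to 6058, 7982 and 8095 CPM in cMos, 11479, 9091 and 9207 CPM in intMos and 9242, 9333 and 9051 CPM in pMos. On this sum all cMos libraries were below all others, and intMos 0 stood highest. The sum weighs genes by level, so it does not show a rise shared by these genes. In cMos, intMos and pMos, Gm2a had means of 536, 1085 and 1201 CPM, Man2b1 567, 1396 and 1185 CPM, and Acp2 51.7, 315 and 353 CPM. Against cMos, 2 members were called lower in intMos and 3 in pMos, and 20 members were called in no comparison. Asah1 (acid ceramidase), Gla (alpha-galactosidase A) and Arsa (arylsulfatase A) had mean levels of 301, 39.0 and 46.9 CPM in cMos, 406, 34.0 and 40.7 CPM in intMos and 301, 39.5 and 36.1 CPM in pMos, in that order. Without the libraries 0, Arsa was called lower in pMos than in cMos (log2 -0.41, adjusted p = 0.0321).

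Genes for neutral lipids, phospholipids, sterols and thioesters included 3 of 4 that rose in intMos against cMos and 1 of 4 that rose in pMos (14.0% and 17.2% of all genes rose). Lipa, the acid lipase that frees cholesterol and fatty acids from lipoproteins, measured 84.8, 121 and 147 CPM in cMos, 218, 196 and 178 CPM in intMos and 277, 281 and 271 CPM in pMos. The 3 subsets formed separate steps without overlap. Lipa rose in intMos (log2 0.75 ± 0.19, edgeR adjusted p = 0.0199) and in pMos (log2 1.23 ± 0.19, adjusted p = 0.00148) against cMos. The step from intMos to pMos was not called (log2 0.48 ± 0.19, adjusted p = 0.201), though it was without the libraries 0 (log2 0.56, adjusted p = 0.0192). Without intMos 0 the intMos call of Lipa was lost (adjusted p = 0.0566).

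Pla2g15, the lysosomal phospholipase A2, had 54.3, 66.5 and 62.3 CPM in cMos, 165, 108 and 112 CPM in intMos and 91.2, 83.2 and 77.1 CPM in pMos. It was highest in intMos and lowest in cMos, with no overlap. Pla2g15 rose in intMos against cMos (log2 1.07 ± 0.18, edgeR adjusted p = 0.00306, and 0.78 without the libraries 0), whereas pMos against cMos was not called (log2 0.46 ± 0.18, adjusted p = 0.0743, and 0.0473 without the libraries 0). In pMos against intMos its log2 change was -0.61 ± 0.18 (edgeR adjusted p = 0.088, and 0.0337 by DESeq2). Ppt1, a thioesterase that removes palmitate from proteins, had 116, 147 and 176 CPM in cMos, 201, 259 and 218 CPM in intMos and 157, 183 and 195 CPM in pMos. The intMos libraries were the highest, and pMos overlapped with cMos. Ppt1 rose in intMos against cMos (log2 0.63 ± 0.18, adjusted p = 0.0317). That call was lost on leaving out cMos 0, cMos 1, intMos 1, intMos 2 or pMos 1 (adjusted p up to 0.091). Cap1, a neighbour on the other strand with 129 shared exonic bases, had 747 to 881 CPM as subset means and was not called. Npc2, the soluble cholesterol carrier, ranged from 438 to 964 CPM over the 9 libraries and was not called with all of them. Without the libraries 0 it was called lower in pMos than in cMos (log2 -0.41, adjusted p = 0.034).

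Among 6 genes of glycosaminoglycan breakdown, 1 rose and 1 fell in intMos, and 2 rose and 1 fell in pMos against cMos, beside 24.4% and 33.1% of all genes called in either direction. Arsb, the sulfatase of dermatan and chondroitin sulfate, measured 42.1, 27.7 and 24.0 CPM in cMos, 8.68, 17.8 and 18.1 CPM in intMos and 8.67, 11.6 and 13.2 CPM in pMos. The cMos libraries were all higher. Library 0 was the highest in cMos and the lowest in both other subsets. Arsb fell in pMos (log2 -1.49 ± 0.32, edgeR adjusted p = 0.00716, and -1.06 without the libraries 0). In intMos it fell by 1.07 ± 0.32 on the log2 scale (adjusted p = 0.0371), but by 0.52 without the libraries 0, and the call was lost without any 1 of 6 libraries (cMos 0, cMos 1, intMos 0, intMos 2, pMos 1 or pMos 2, up to 0.115).

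Ids and Idua encode the sulfatase and the iduronidase that act in turn on heparan and dermatan sulfate. Ids had 17.3, 39.9 and 29.2 CPM in cMos, 68.4, 43.5 and 59.2 CPM in intMos and 60.5, 62.2 and 55.8 CPM in pMos. No cMos library reached the lowest of the others. It rose in intMos (log2 0.98 ± 0.28, edgeR adjusted p = 0.0316) and in pMos (log2 1.05 ± 0.28, adjusted p = 0.0187). Without the libraries 0 the intMos call was lost (log2 0.58, adjusted p = 0.0682). It also ended without cMos 2, intMos 0, intMos 2, pMos 1 or pMos 2 (up to 0.0944), and the pMos call without cMos 2 or pMos 1 (up to 0.058). Idua had 30.5, 36.6 and 33.1 CPM in cMos, 58.4, 39.5 and 44.9 CPM in intMos and 59.0, 49.9 and 45.0 CPM in pMos, with cMos below all others. In intMos it was not called by edgeR (log2 0.51 ± 0.17, adjusted p = 0.0599, and 0.0445 by DESeq2). It rose in pMos (log2 0.62 ± 0.17, adjusted p = 0.023), a call lost without cMos 0, cMos 2, pMos 0 or pMos 1 (up to 0.077). The exonic overlap of Idua with Dgkq and Slc26a1 on the other strand was 124 and 141 bases, and neither neighbour was called. Gusb, the beta-glucuronidase often used as a stable reference, kept to 281 to 344 CPM in all 9 libraries, with no call. Naglu and Sgsh, enzymes of heparan sulfate, had subset means of 32.5 to 48.4 and 36.7 to 51.9 CPM and were not called.

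Of 4 genes for glycogen and glycoprotein breakdown, Man2b1 was the gene called by edgeR. It encodes lysosomal alpha-mannosidase and measured 506, 668 and 527 CPM in cMos, 1999.6, 976 and 1212 CPM in intMos and 1451, 1066 and 1038 CPM in pMos. All cMos libraries were below the rest, and library 0 was the highest in both intMos and pMos. Man2b1 rose 2.46-fold in intMos (log2 1.30 ± 0.27, edgeR adjusted p = 0.00845) and 2.09-fold in pMos (log2 1.06 ± 0.26, adjusted p = 0.0139), and by a log2 of 0.88 and 0.82 without the libraries 0. Gaa, the acid alpha-glucosidase that degrades glycogen, had 123 CPM in intMos 0 beside 49.9 and 63.3 CPM in the other intMos libraries. Its subsets overlapped and it was not called. Manba, the beta-mannosidase, and Fuca1, the fucosidase, had subset means of 54.2 to 68.7 and 123 to 148 CPM and were not called by edgeR with all 9 libraries. Manba was lowest in pMos (log2 -0.34 ± 0.13 against cMos, edgeR adjusted p = 0.064), where DESeq2 (adjusted p = 0.0488) and edgeR without the libraries 0 (adjusted p = 0.0285) called it.

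The 2 LAMP genes were not called in any comparison with all 9 libraries. Lamp1, which with Lamp2 lines the inside of the lysosomal membrane, had 849, 1107 and 1293 CPM in cMos, 1052, 953 and 863 CPM in intMos and 890.2, 1023 and 967 CPM in pMos. The subsets overlapped. Its log2 change was -0.18 in intMos (edgeR adjusted p = 0.46) and -0.17 in pMos (adjusted p = 0.447). Without the libraries 0 it was called lower in intMos (log2 -0.40, edgeR adjusted p = 0.0444). Lamp2 had subset means of 483 ± 70.4, 435 ± 61.0 and 399 ± 53.3 CPM (SD, n = 3 libraries). Scarb2, the receptor that carries beta-glucocerebrosidase to the lysosome, had 72.1, 100.2 and 119.5 CPM in cMos, 199.6, 157 and 139 CPM in intMos and 132, 139 and 131 CPM in pMos, with cMos below all others. It rose in intMos (log2 0.77 ± 0.20, adjusted p = 0.022), a call lost without cMos 1 or intMos 0 (up to 0.0665). Cd68, the scavenger receptor used to stain macrophages, went from 150.5, 266 and 246 CPM in cMos to 467, 298 and 329.9 CPM in intMos and 390.2, 362 and 349 CPM in pMos. The groups did not overlap with cMos, yet the adjusted p-values of 0.0494 and 0.0378 lay close to the threshold. Its intMos call was lost without any 1 library other than cMos 1 and intMos 1 (up to 0.157), and its pMos call without cMos 0, cMos 2, intMos 2 or any pMos library (up to 0.0947). The log2 changes of Cd68 were 0.73 and 0.74, and 0.30 (no longer called, adjusted p = 0.0907) and 0.48 without the libraries 0.

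Among the channels and transporters, Cln3 was the gene called. Cln3 encodes a multispan membrane protein that is lost in juvenile Batten disease. It had 92.6, 114 and 107 CPM in cMos, 143, 121 and 125 CPM in intMos and 146, 146 and 139 CPM in pMos. The cMos libraries were below all others. Cln3 rose in pMos (log2 0.46 ± 0.12, edgeR adjusted p = 0.0188), and the call was lost without pMos 0 or pMos 1 (up to 0.0656). Apobr, a lipoprotein receptor on the other strand with 442 shared exonic bases, rose by a log2 of 0.50 in the same comparison (adjusted p = 0.0202). Without a stated strand setting, reads in the shared bases, 442 of the 5781 exonic bases of Cln3, may not have been separated. Mcoln1, the calcium channel that signals from lysosomes, had subset means of 41.5, 42.2 and 43.5 CPM, and Npc1, which exports cholesterol, 113, 145 and 123 CPM, with no call.

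Tfeb (ENSMUSG00000023990.17, chromosome 17, 47737030 to 47792419, plus strand) measured 70.5, 70.1 and 60.4 CPM in cMos, 74.5, 70.4 and 82.5 CPM in intMos and 126, 107 and 103 CPM in pMos. All pMos libraries were above all others, and intMos overlapped with cMos. Tfeb rose 1.67-fold in pMos against cMos (log2 0.74 ± 0.13, edgeR adjusted p = 0.0026) and was not called in intMos against cMos (log2 0.18 ± 0.13, adjusted p = 0.346). It was also called higher in pMos than in intMos (log2 0.56 ± 0.13, adjusted p = 0.0384). That call was lost without any 1 library other than cMos 0 and cMos 2 (up to 0.137), and with the library number as a replicate block (adjusted p = 0.0521). Upper quartile scaling in place of TMM, and the fit with no filter on low counts, also did not call it.

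Tfe3 had 102, 121 and 87.8 CPM in cMos, 161, 108 and 152 CPM in intMos and 145, 156 and 142 CPM in pMos. Its pMos libraries lay above those of cMos, and the log2 change of 0.51 ± 0.18 was not called (edgeR adjusted p = 0.0517). Mitf had 12.5, 20.5 and 17.7 CPM in cMos, 22.9, 17.5 and 20.1 CPM in intMos and 21.7, 27.8 and 25.9 CPM in pMos. Its pMos libraries were above those of cMos, with an uncalled log2 change of 0.57 ± 0.20 in pMos (adjusted p = 0.0583). DESeq2 called both of these (adjusted p = 0.0428 for Tfe3 and 0.0432 for Mitf). Without the libraries 0, edgeR called Mitf higher in pMos than in cMos (log2 0.49, adjusted p = 0.0226) and than in intMos (log2 0.51, adjusted p = 0.0378). Tfe3 was not called without them in pMos against cMos (edgeR adjusted p = 0.0853). Tfec, another family member and not one of the 38 genes, was added after its values were seen: its means were 103 to 124 CPM in cMos and intMos and 85.0 CPM in pMos, with no call. Grn, a secreted and lysosomal protein that supports lysosome function, had 767, 1113 and 875 CPM in cMos, 1144, 839.5 and 976 CPM in intMos and 798, 869.5 and 851 CPM in pMos, and its libraries overlapped across all subsets.

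**Figure D3:**
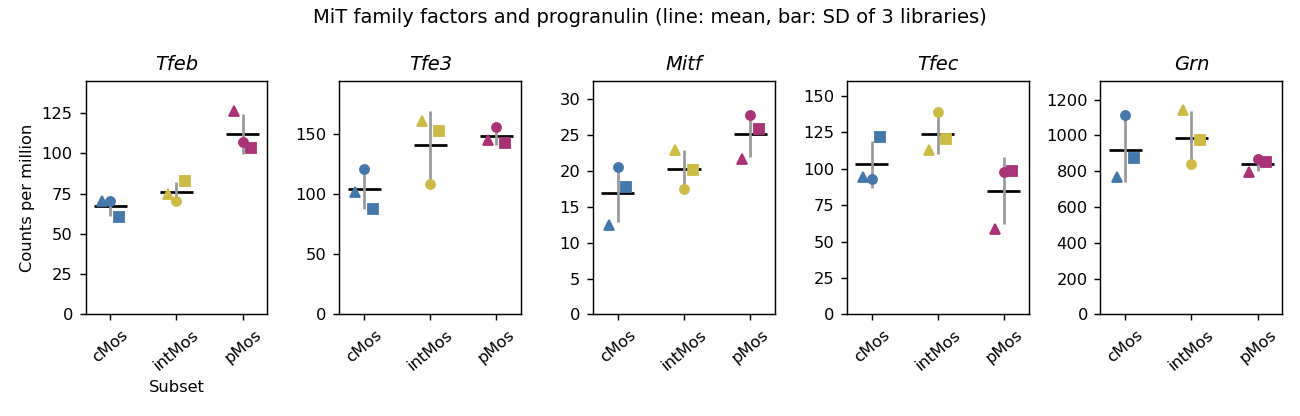
CPM of the MiT family genes and Grn in each library (vertical axes start at 0, 1 scale per gene), with the mean as a line and the SD of 3 libraries as a bar. Tfeb in pMos, at 103 to 126 CPM, lies above every cMos and intMos library, while Grn overlaps across the 3 subsets.

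The members with the E-box core in a promoter window were set beside those without. Of the 9 genes with the core, none was called in intMos against cMos (edgeR, with 1 at an unadjusted p under 0.05 and 0 by DESeq2), while 12 of the 27 without it rose and 2 fell. Median log2 changes were 0.12 and 0.47. In pMos against cMos, 1 of the 9 rose (Cln3) and 1 fell (Glb1), and of the 27, 10 rose and 2 fell, with medians of 0.07 and 0.46. Of all genes tested, 14.0% rose and 10.4% fell in intMos, and 17.2% and 15.9% in pMos. Only exact matches within the windows were counted, so a member without one is not shown to lack such sites. Both sets of members were small and the difference between them was not tested.

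**Figure D4:**
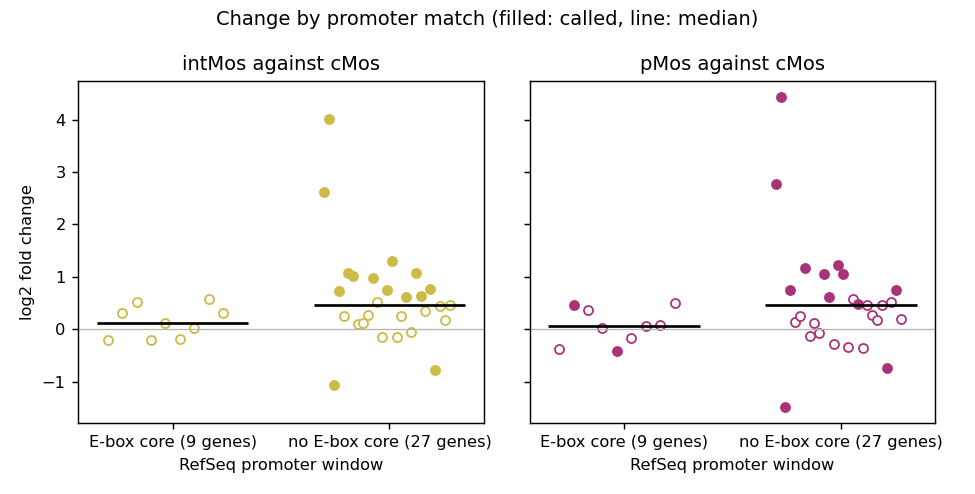
Log2 change against cMos (vertical axis) of the 36 members with a RefSeq promoter window, split by whether the window holds the E-box core, for intMos and pMos. Filled points are called genes and lines are medians, at 0.12 and 0.47 in intMos and 0.07 and 0.46 in pMos.

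Between pMos and intMos, 3 of the 38 genes were called. Tfeb was higher in pMos (3.29% of all genes were), and Galc and Glb1 were lower (log2 -0.82 ± 0.19, edgeR adjusted p = 0.0414, and -0.53 ± 0.11, adjusted p = 0.0286), beside 1.69% of all genes. The 38 genes had a median log2 change of -0.13, beside -0.02 over all genes tested. In 9 members, 23.7%, all pMos libraries were below all intMos libraries, beside 12.9% of all genes, and in 3 members, 7.89%, they were above, beside 14.8%. No call of this comparison held on leaving out each library in turn: Galc was lost without any 1 library other than cMos 0 (up to 0.165) and with the replicate block (adjusted p = 0.0697), and Glb1 without any intMos or pMos library (up to 0.123). With the block 1 member, Glb1, stayed called (adjusted p = 0.0463). With no filter on low counts neither Glb1 nor Tfeb was called. With the libraries 0 left out, 4 members were called higher and 4 lower (21.1% in all, beside 17.1% of all genes, 7.43% higher and 9.67% lower).

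**Figure D5:**
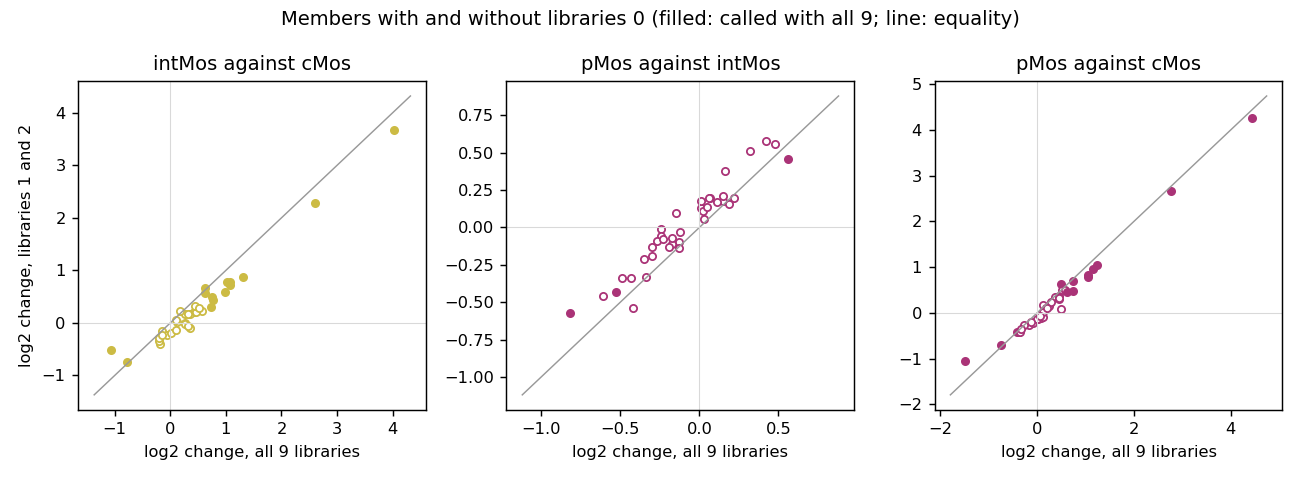
Log2 change of the 38 members from all 9 libraries (horizontal axis) against that from libraries 1 and 2 (vertical axis), 1 panel per comparison, with the line of equality and filled points for genes called with all 9. In intMos against cMos most rises are smaller without the libraries 0, such as 1.30 and 0.88 for Man2b1, while Acp5 is at 4.02 and 3.67.

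Other genes of the lysosome and its control were counted in 5 further lists. Of 32 further hydrolases and membrane proteins, 7 rose and 1 fell in intMos, and 8 rose and 3 fell in pMos against cMos, with medians of 0.30 and 0.19. These 8 and 11 calls among 32 genes are close to the share of all genes called, 24.4% and 33.1%. Tpcn2, a two-pore channel of the lysosome, rose most in intMos (log2 2.24 ± 0.30, edgeR adjusted p = 0.0012), and Cd63, a tetraspanin of late endosomes, rose most in pMos (log2 2.15 ± 0.42, adjusted p = 0.00476). Galns, a sulfatase of keratan sulfate, fell most in both (log2 -0.90 ± 0.22, adjusted p = 0.0177, and -1.19 ± 0.22, adjusted p = 0.00358). Its intMos call was lost without intMos 0 (0.0573), and its log2 change there was -0.51 without the libraries 0. In pMos against intMos, Cd164, a sialomucin of endosomes, fell (log2 -1.17 ± 0.14, adjusted p = 0.00264).

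Of 18 genes of the V-ATPase, the proton pump that acidifies the lysosome, 1 rose and 1 fell in intMos, and 2 rose and 1 fell in pMos against cMos (11.1% and 16.7% called, beside 24.4% and 33.1% of all genes). Tcirg1, a membrane subunit, rose in both (log2 0.57 ± 0.15, edgeR adjusted p = 0.0235, and 0.48 ± 0.15, adjusted p = 0.0345). The calls were lost without cMos 2 or intMos 0 (up to 0.068) and without any cMos or pMos library (up to 0.112). Atp6v1b2, a cytosolic subunit, fell in intMos (log2 -0.55 ± 0.15, adjusted p = 0.0308, lost without cMos 1, cMos 2, intMos 0, intMos 2, pMos 1 or pMos 2, up to 0.102). Atp6v1a, the catalytic subunit, fell in pMos (log2 -0.43 ± 0.13, adjusted p = 0.0282, and -0.29 without the libraries 0, lost without cMos 0, intMos 2 or any pMos library, up to 0.0998).

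Of 18 genes that deliver or activate hydrolases, 2 rose and 1 fell in intMos, and 3 rose and 2 fell in pMos against cMos (16.7% and 27.8% called, beside 24.4% and 33.1% of all genes). Igf2r, the large mannose 6-phosphate receptor, had 2.27 ± 1.94 CPM in cMos, 4.93 ± 1.41 CPM in intMos and 29.2 ± 4.46 CPM in pMos (SD, n = 3 libraries). It rose in pMos against cMos (log2 3.69 ± 0.54, edgeR adjusted p = 0.0012) and against intMos (log2 2.57 ± 0.51, adjusted p = 0.0219, lost without intMos 1, intMos 2 or any pMos library, up to 0.0924). Sort1, the sorting receptor sortilin, fell in intMos (log2 -1.04 ± 0.27, adjusted p = 0.0215, lost without cMos 0, cMos 1 or intMos 1, up to 0.0615), and Ap1b1, an adaptor subunit, rose (log2 0.99 ± 0.24, adjusted p = 0.0182, and 0.61 without the libraries 0, lost without cMos 0 or cMos 2, up to 0.0557). Ap1s1, another adaptor subunit, fell in pMos against cMos (log2 -0.73 ± 0.16, adjusted p = 0.00703).

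Among 21 genes of nutrient sensing and MiT control, 1 rose and 2 fell in intMos, and 2 rose and 3 fell in pMos against cMos (14.3% and 23.8% called, beside 24.4% and 33.1% of all genes). Slc38a9, an arginine sensor of the lysosomal membrane, rose in intMos (log2 0.77 ± 0.17, edgeR adjusted p = 0.0117). Lamtor4, part of the Ragulator scaffold, fell in pMos (log2 -0.82 ± 0.14, adjusted p = 0.00216) and in intMos (log2 -0.46 ± 0.14, adjusted p = 0.038, lost without any 1 library other than intMos 1, up to 0.107). Rragd, a GTPase of that scaffold, rose in pMos, at a low 1.66 ± 0.267 beside 0.537 ± 0.204 CPM (log2 1.62 ± 0.42, adjusted p = 0.0163, lost without cMos 1, cMos 2 or pMos 1, up to 0.058). Ppp3ca, a catalytic subunit of the phosphatase calcineurin that acts on TFEB, fell in pMos against intMos (log2 -0.59 ± 0.11, adjusted p = 0.0183, lost without intMos 1, pMos 1 or pMos 2, up to 0.113).

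Of 16 autophagy genes, 2 rose and 1 fell in intMos, and 4 rose and 2 fell in pMos against cMos (18.8% and 37.5% called, beside 24.4% and 33.1% of all genes). Sqstm1, the cargo receptor p62, rose most in pMos, from 177 ± 24.0 to 399.8 ± 16.4 CPM (SD, n = 3 libraries) (log2 1.18 ± 0.14, edgeR adjusted p = 0.000465). Uvrag, a regulator of autophagosome maturation, rose in intMos (log2 0.67 ± 0.13, adjusted p = 0.00712), where Atg7, an enzyme of the conjugation step, fell (log2 -0.53 ± 0.11, adjusted p = 0.00725). Wipi1, a lipid-binding protein of early autophagosomes, fell in pMos (log2 -1.02 ± 0.22, adjusted p = 0.00773).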

How the data were processed

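RNA was isolated using RNAzol, and stranded mRNA libraries were prepared with an NEBNext Ultra II kit, per the labels' protocols. The values are estimated counts per gene that the authors deposited, and kallisto 0.46.1 and the mm10 build are named in the submitters' processing notes. The strand setting is not stated there, so reads of overlapping genes on opposite strands may not be separated. Between 25.6% and 27.5% of values per library were not whole, and all were rounded. Genes were filtered with filterByExpr, scaled by TMM and fitted over all 9 libraries with edgeR 4.0.16 (robust quasi-likelihood test, R 4.3.3), with Benjamini-Hochberg adjustment over 14059 genes. Every adjusted p is from this fit unless DESeq2 1.42.0 is named. A gene is called at an adjusted p under 0.05, and a p given beside a lost call is the highest over the libraries left out. No exact permutation test of 3 against 3 libraries can go below 0.1.

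Every member is named, and values are given in full for those called in a comparison and for the regulators. In each further list the largest called rise and fall per comparison are named, except 1 gene that is not reported here. The members and lists were chosen with earlier results of these data known. Alternatives were other scalings and filters, DESeq2, a replicate block, fits to 2 subsets, each library left out, and libraries 1 and 2 alone. Same-numbered libraries of intMos and pMos deviated together over genes in every pair (correlations of 0.588, 0.3 and 0.274). Pairs with cMos were mixed: those with intMos gave 0.0657, -0.143 and -0.0694, and those with pMos 0.179, -0.0156 and 0.23, for libraries 0, 1 and 2. Deviations within a subset depend on each other and the libraries 0 stood apart, so these values do not show that libraries 1 and 2 pair by number. The labels do not say what a number stands for. For pMos against intMos the blocked values stand beside the calls they change, with the numbers treated as pairs. The fit was tested on simulated data in which 200 of 14059 genes, drawn at any level, were changed. At a log2 change of 1 it recovered 37% in intMos against cMos, 26% in pMos against intMos and 30% in pMos against cMos. At a log2 change of 2 it recovered 80%, 75% and 82%. Of the 125, 109 and 121 calls made in these simulated data, 8, 8 and 9 fell on unchanged genes. In the real data 24.4% and 33.1% of genes were called in intMos and pMos against cMos. The adjustment was thus less strict there, and the simulated rates need not hold for the members. Gene coordinates are from GENCODE on mm10, and promoter windows from RefSeq on GRCm38.p6.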

Additional observations from a re-analysis of the deposited data

How the results depend on the processing

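In intMos against cMos 14 members were called, 8 in the fit to those subsets alone and 9 to 16 on leaving out each library (9 without intMos 0). In pMos against cMos 14 were called, and 8 to 17 on leaving out each library (8 without pMos 1). In pMos against intMos 3 were called, 1 with no filter on low counts, 8 with libraries 1 and 2 only, and 0 to 3 on leaving out each library. It was 0 without any 1 of the intMos or pMos libraries, where edgeR gave 4 to 6 members an unadjusted p under 0.05 (DESeq2 on all 9 libraries called 4). Over all genes, intMos against cMos gave 3433 calls, 2213 in the fit to those subsets alone and 2337 without intMos 0. The comparison of pMos against cMos gave 4650 calls over all genes, and 3138 without pMos 1. For pMos against intMos there were 701, 1417 by DESeq2, 2424 with libraries 1 and 2 only and 221 to 1107 on leaving out each library (221 without pMos 1, 1107 without cMos 0).

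Of 41 log2 changes of single members, 35 kept their call and direction with libraries 1 and 2 only. Uncalled changes that turned sign were Mitf in intMos against cMos (-0.02) and Grn there (-0.13) with libraries 1 and 2 only. On leaving out each library, Grn ranged from -0.01 to 0.26 in intMos against cMos and from -0.25 to 0.03 in pMos against cMos, and Tfe3 from -0.09 to 0.18 in pMos against intMos. The cause was not tested.

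With the library number as a replicate block, 11, 1 and 15 members were called in intMos against cMos, pMos against intMos and pMos against cMos, beside 14, 3 and 14 without it. Over all genes the counts rose from 3433, 701 and 4650 to 3650, 836 and 4961. In intMos against cMos, Arsb, Ids and Cd68 were not called with the block, and in pMos against cMos Cd68 was not, while Arsa and Manba were. In pMos against intMos it changed no call of a member but those of Tfeb and Galc. With 3 libraries a subset, changes of a log2 of 1 were often missed in simulated data, where a smaller share of genes changed than was called against cMos here. An uncalled member is not shown to be unchanged.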
